A study of Mus musculus with 4 samples.

Results

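Expression of 9 apolipoprotein genes and of Mttp, the gene of the microsomal triglyceride transfer protein, was compared between the livers of fasted wild-type and Cnot3+/- mice. The genes are Apoa1, Apoa2, Apoa4, Apoa5, Apob, Apoc1, Apoc3, Apoe, Apom and Mttp. They were found through every probe set of the array that the platform annotation pairs with exactly 1 gene symbol, where that symbol was on this list. This gave 17 probe sets for the 10 genes, out of 45101 probe sets on the array and 34958 with 1 symbol. The 4 arrays carry liver RNA of male C57BL/6J mice aged 12 weeks, kept on normal chow and deprived of food for 24 h. Both wild-type and both Cnot3+/- animals are biological replicates by their labels, and each array is named by its genotype and replicate number. CNOT3 is part of CCR4-NOT, the main complex that removes poly(A) tails from mRNAs. The labels mark the mutants as Cnot3+/-, that is heterozygous, and give neither the altered part of the gene nor how the allele was made.

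The liver exports triglyceride in very low density lipoprotein, VLDL. Its scaffold is apolipoprotein B, which takes up lipid in the endoplasmic reticulum with the help of the microsomal triglyceride transfer protein. Smaller apolipoproteins exchange between particles: APOA1 and APOA2 are the main structural proteins of high density lipoprotein, HDL, the C apolipoproteins and APOA5 set how fast lipoprotein lipase clears triglyceride, and APOE is a ligand for hepatic uptake. In fasting, adipose fatty acids reach the liver and supply the triglyceride of VLDL.

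The values are log2 expression values, so a difference of 1 is a 2-fold change, and all differences are Cnot3+/- minus wild-type. Cnot3 itself had log2 values of 7.48 and 8.14 on the wild-type arrays and 7.70 and 7.86 on the Cnot3+/- arrays (difference -0.03, SE 0.25, n = 2 per group), so this probe set does not separate the genotypes. Every direction below is therefore that of the arrays as labelled. Of 10 hepatocyte markers 8 were tested, of which 7 stood higher and 1 lower in Cnot3+/- (median 0.10) and 0 were called. They ran from -0.08 for Ttr to 0.71 for Ass1 (SE 0.22), and the next largest was 0.29 for Hpx. The Ass1 probe set was the dimmest of them, at 6.71 and 6.63 on the wild-type arrays and 7.66 and 7.09 on the Cnot3+/- arrays. Albumin (Alb) read between 14.80 and 14.87 on all arrays. All 13 markers of Kupffer cells and other macrophages were highest on Cnot3+/- 2. The log2 of their summed level was 12.36 and 12.54 on the wild-type arrays, 12.16 for Cnot3+/- 1 and 14.12 for Cnot3+/- 2, and none was at 0. In whole liver, fewer cells of a type and less RNA per cell cannot be told apart.

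None of the 10 genes differed between the genotypes past the threshold, a limma adjusted p below 0.05 over the 13379 genes tested, where 0.0149% of genes were called. The 2 called genes were Lcn2 and Cox6b2, which are named here after their values were seen. No member had an unadjusted p below 0.05, against 3.59% of all genes. Differences of the 10 genes ran from -0.18 for Mttp to 0.63 for Apoa4, with a median of -0.02, against a median of -0.01 over all genes tested. The 95% confidence interval lay within a 2-fold change in either direction for 9 of the 10 genes, all except Apoa4. It did so for 12307 of the 13379 genes tested. Over probe sets this held for 14 of the 17, against 42763 of 45101, and Apob 1457554_at was among the exceptions. On all 17 probe sets fitted among the 45101, 0 were called, against 0.00443% of all probe sets, and 0 had an unadjusted p below 0.05, against 3.90%.

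The arrays of the 2 genotypes did not overlap for 6 of the 10 genes, against 31.5% of all genes tested. Apoa1 and Apoa4 were higher on both Cnot3+/- arrays, against 14.1% of all genes. Apoa5, Apoc1, Apoc3 and Mttp were lower on both, against 17.4%. Apoa2, Apob, Apoe and Apom overlapped. The number without overlap was 3 after quantile normalization of the deposited values, against 32.1% of all genes in that setting. Those 3 were Apoa1, Apoc1 and Mttp. It was 10 without Cnot3+/- 2, where 1 array is set against 2 and 63.9% of all genes did not overlap. Over the probe sets, 9 of 17 did not overlap, against 31.1% of all probe sets. These were 5 higher, against 13.2%, and 4 lower, against 17.9%. The higher ones include all 4 probe sets of Apoa1, which read the same RNA and are not separate observations. The difference between genotypes was larger than the gap between arrays of either genotype for 2 of the 10 genes, Apoa1 and Apoc1. The share of all genes for which this holds was not counted, so it does not set these 2 apart.

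**Figure D1:**
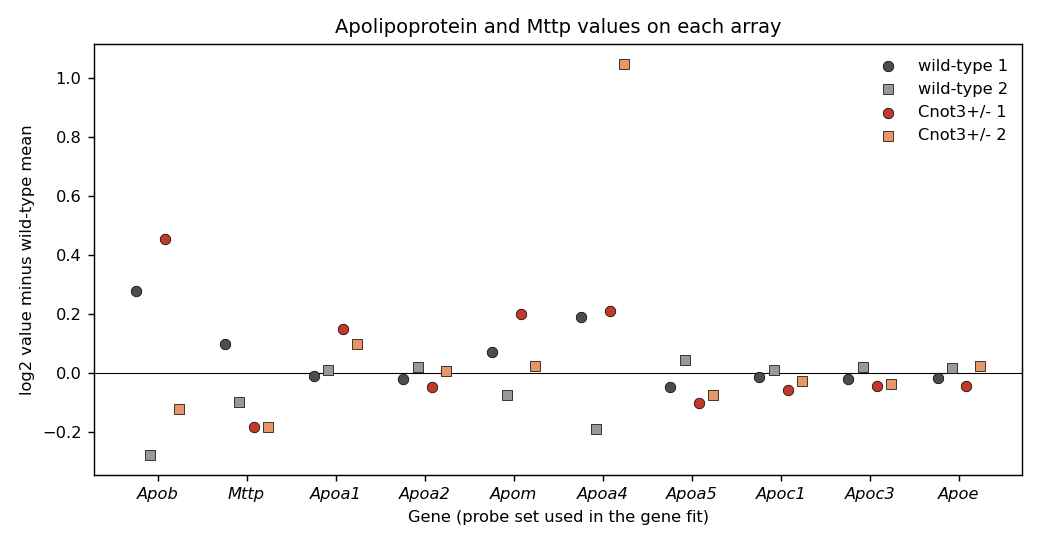
Log2 value of each gene on each array minus the mean of the wild-type arrays, for the probe set used in the gene fit. Points are single arrays. Apoa4 on Cnot3+/- 2 stands furthest from the wild-type mean, Apob splits by array number rather than by genotype, and Apoa2, Apoc1, Apoc3 and Apoe range over 0.06 to 0.07.

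**Figure D2:**
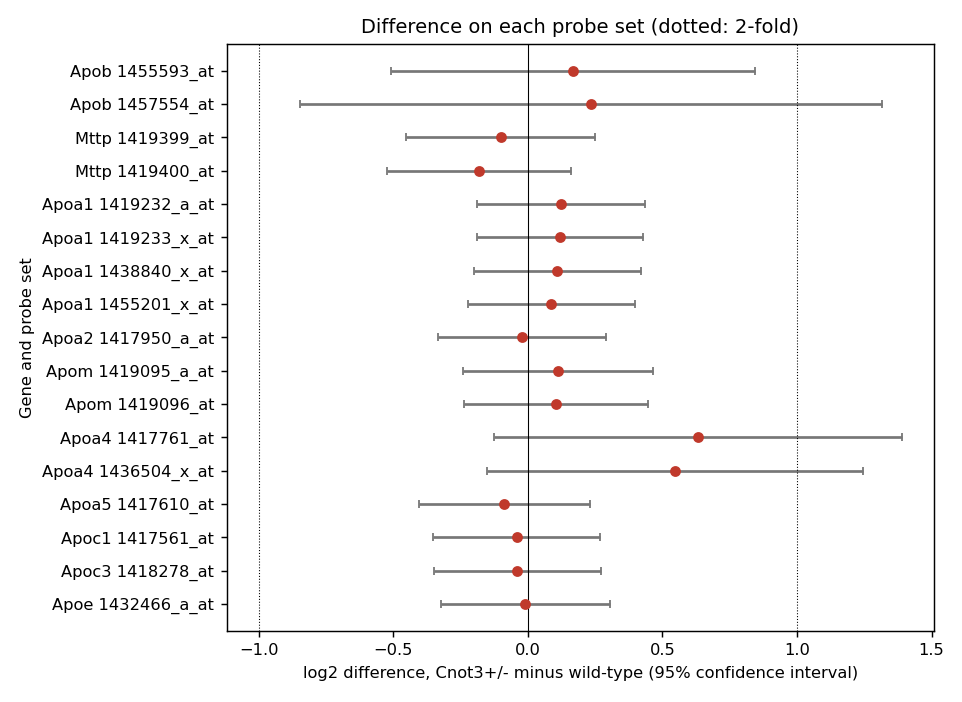
Log2 difference, Cnot3+/- minus wild-type, with its 95% confidence interval for each of the 17 probe sets in the fit over all probe sets (n = 2 arrays per genotype). Dotted lines mark a 2-fold change. Every interval holds 0, and those of both Apoa4 probe sets and of Apob 1457554_at reach past a 2-fold rise.

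The values of most members lie near the top of the array's range. The highest value on any array was between 14.89 and 14.96, and the highest member value was between 14.53 and 14.57. Of the 96 genes tested with a mean log2 value of 13 or more, 7 are members: Apoa1, Apoa2, Apoa5, Apob, Apoc1, Apoc3 and Apoe. In these 96 genes the median size of the difference was 0.08 and the median gap between the wild-type arrays 0.07, against 0.12 and 0.18 in all genes tested. Array signals level off near the top of the scale, so small differences there can understate those of the transcripts.

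**Figure D3:**
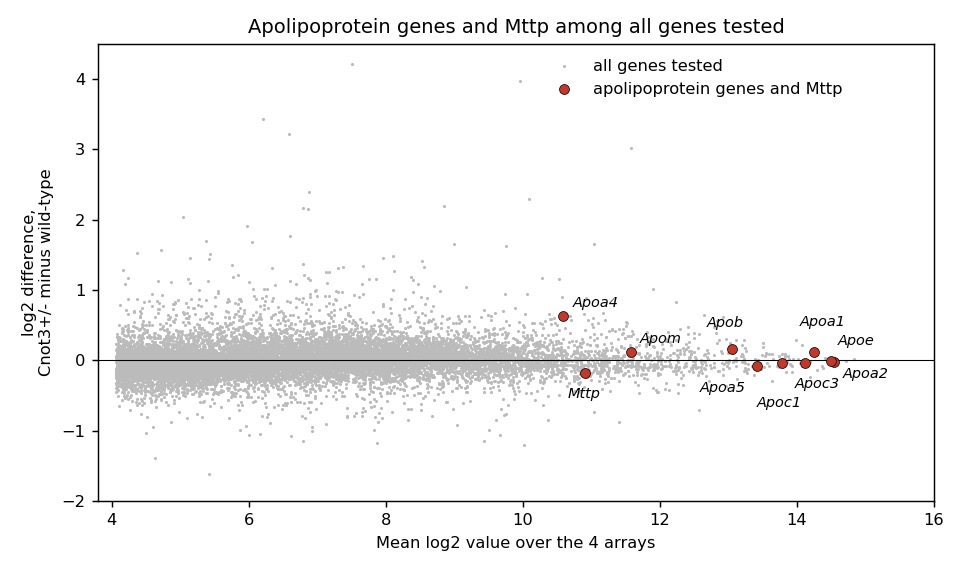
Log2 difference, Cnot3+/- minus wild-type, against the mean log2 value over the 4 arrays. Grey points are the 13379 genes tested and red points the 9 apolipoprotein genes and Mttp. Apart from Apoa4 at 0.63, the red points lie between -0.18 and 0.17.

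For VLDL assembly, neither the scaffold nor its lipid loader passed the test. Mttp, whose protein moves triglyceride onto nascent apolipoprotein B, read 11.10 and 10.91 on the wild-type arrays and 10.82 and 10.82 on the Cnot3+/- arrays with probe set 1419400_at. Both Cnot3+/- arrays lay below both wild-type arrays. The ratio of Cnot3+/- to wild-type was 0.881 (95% confidence interval 0.688 to 1.13), with a log2 difference of -0.18 (SE 0.14, n = 2 per group, limma adjusted p = 0.999). The gap between the wild-type arrays, 0.20, was larger than this difference, which was -0.08 without wild-type 1 and -0.28 without wild-type 2. On the other Mttp probe set, 1419399_at, the wild-type arrays read 10.29 and 10.42 and the Cnot3+/- arrays 10.17 and 10.34, and the groups overlapped (difference -0.10, SE 0.14).

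Apob, the scaffold gene, split between the arrays of each genotype more than between the genotypes. Probe set 1455593_at read 13.25 for wild-type 1 and 12.70 for wild-type 2, and 13.43 for Cnot3+/- 1 and 12.85 for Cnot3+/- 2. The arrays numbered 1 were high and those numbered 2 low, in both genotypes. Probe set 1457554_at read 10.46 for wild-type 1 and 11.56 for wild-type 2, and 10.83 for Cnot3+/- 1 and 11.66 for Cnot3+/- 2, so here the arrays numbered 1 were the low ones. The genotype difference was 0.17 (SE 0.28, limma adjusted p = 0.999) for the former and 0.23 (SE 0.43) for the latter. On the mean of the 2 probe sets it was 0.20 (SE 0.15), and there the genotypes did not overlap, against 31.3% of all genes in that setting. For 1455593_at the sign turned when wild-type 2 (-0.11) or Cnot3+/- 1 (-0.12) was left out. For 1457554_at it turned when wild-type 1 (-0.32) or Cnot3+/- 2 (-0.18) was left out.

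The gap between the Apob probe sets was 2.79 in wild-type 1 and 2.60 in Cnot3+/- 1, but 1.14 in wild-type 2 and 1.20 in Cnot3+/- 2. Its mean thus differed by 1.53 between array numbers, and by -0.07 between genotypes. Among 15981 same-gene pairs of probe sets, 8 had a gap that differed this much or more between array numbers without overlap. These were 0.0501% of the pairs, came from 4 genes and included the Apob pair itself. The median size over all pairs was 0.17. Gaps did not overlap between array numbers in 45.8% of the pairs. This pattern was noticed in the values. The gap between the Mttp probe sets moved with the numbers too, by -0.26. The gaps within Apoa1, Apoa4 and Apom moved by no more than 0.04.

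The labels do not say that an array number marks a shared day or batch. For the Gapdh control, the 3′ probe set minus the 5′ one, a measure of how complete the labelled RNA was, gave 0.11 in wild-type 1 and 0.19 in Cnot3+/- 1, against 0.25 in wild-type 2 and 0.31 in Cnot3+/- 2. That of the Actb control was 1.46 and 1.60 on the arrays numbered 1, and 1.54 and 1.49 on those numbered 2, without such a split. The part of RNA quality in the Apob pattern was not tested.

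**Figure D4:**
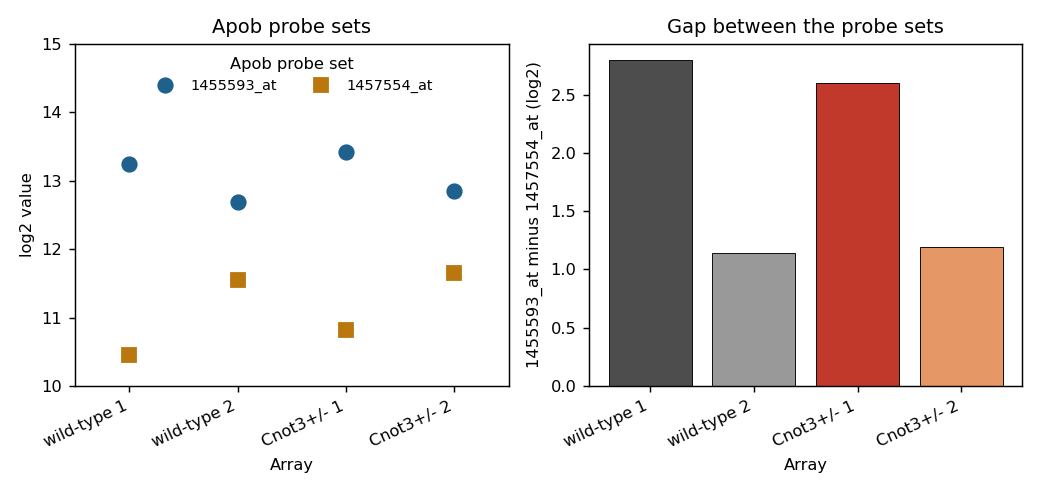
Left, log2 values of the Apob probe sets 1455593_at (circles) and 1457554_at (squares) on each array. Right, the gap between them, 1455593_at minus 1457554_at, as bars from 0. The gap is 2.79 and 2.60 on the arrays numbered 1 and 1.14 and 1.20 on those numbered 2, in both genotypes alike.

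Apoa1, Apoc3, Apoa4 and Apoa5 follow each other on mouse chromosome 9 with no other protein-coding gene between them in the RefSeq annotation. Apoa1 and Apoa4 stood higher and Apoc3 and Apoa5 lower on both Cnot3+/- arrays, but none passed, and whether the neighbours differ in direction was not tested. The 250 bases before the start sites of Apoa1, Apoa4 and Apoa5 are shown because these genes form 1 cluster and hold the member of largest difference. The sequences are those of RefSeq on GRCm38.p6, plus strand, at chr9:46228380-46228629 for Apoa1, chr9:46240594-46240843 for Apoa4 and chr9:46268358-46268607 for the first listed start of Apoa5. Capitals mark matches to the searched motifs.
Apoa1: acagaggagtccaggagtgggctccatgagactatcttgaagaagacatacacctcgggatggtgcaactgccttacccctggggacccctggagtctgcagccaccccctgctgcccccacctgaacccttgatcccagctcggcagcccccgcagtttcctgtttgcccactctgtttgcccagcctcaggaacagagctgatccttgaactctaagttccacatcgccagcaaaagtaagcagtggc
Apoa4: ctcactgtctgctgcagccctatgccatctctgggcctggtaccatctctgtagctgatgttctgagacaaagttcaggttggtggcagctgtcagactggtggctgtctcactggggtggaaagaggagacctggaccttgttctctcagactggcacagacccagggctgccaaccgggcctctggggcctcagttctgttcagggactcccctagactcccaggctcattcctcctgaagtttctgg
Apoa5: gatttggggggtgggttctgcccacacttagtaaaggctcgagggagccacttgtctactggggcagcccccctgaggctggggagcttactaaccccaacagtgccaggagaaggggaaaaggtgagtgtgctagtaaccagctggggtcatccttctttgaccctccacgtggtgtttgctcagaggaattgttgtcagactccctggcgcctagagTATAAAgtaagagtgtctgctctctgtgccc

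The table of start sites held 12 windows for 8 members, and none matched for Apoc1 and Apoc3. Both strands of each 250-base window were searched for the letters of 4 motifs. TATAAA, the TATA element, was found in 5 of the 12 member windows and in 12.4% of all 32851 windows. These 5 windows belong to 4 members, Apoa2, Apoa5, Apob and Apoe. In Apoa5 the same match lies at -31 to -26 from the first listed start and at -56 to -51 from the second. In Apob the match lies at -60 to -55, and in Apoa2 at -212 to -207. In Apoe, matches on opposite strands overlap, at -100 to -95 and -96 to -91. GTAAACA, a forkhead element, was found in 1 of the 12 member windows, of Apoa2, and in 3.17% of all windows. GGNCAAAGG, the core of the DR1 element read by HNF4A and PPARA, was found in 0 member windows and 1.65% of all windows. CAAAGTCCA, an HNF4A element, was found in 0 member windows and 0.384% of all. A missing match says only that these letters are not in these windows.

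Of the HDL proteins, Apoa1 stood slightly higher in Cnot3+/- on every probe set, without a call. Apoa1 encodes the main structural protein of HDL and the activator of LCAT. On probe set 1419232_a_at it stood at 14.18 and 14.20 on the wild-type arrays and 14.34 and 14.29 on the Cnot3+/- arrays. The ratio was 1.09 (95% confidence interval 0.870 to 1.36), with a log2 difference of 0.12 (SE 0.13, n = 2 per group, limma adjusted p = 0.999). The other 3 Apoa1 probe sets, of the _x_at kind that can match related transcripts, differed by 0.12, 0.11 and 0.09. On all 4 probe sets the genotypes did not overlap. They read the same RNA of the same animals, so they are not separate observations.

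The Apoa1 arrays of a genotype lay very close together, 0.02 apart in wild-type and 0.05 in Cnot3+/-. The moderated standard error of 0.13 comes mostly from the spread that limma borrows from all genes. With the ordinary linear model the standard error was 0.03 and the unadjusted p was 0.0435, on 2 residual degrees of freedom, and the adjusted p was 0.998. In that model 4.55% of all genes had an unadjusted p below 0.05. Of the 96 genes with a mean log2 value of 13 or more, 13 had a positive difference at least as large as that of Apoa1, and in all genes tested 24.2% did. Apoa1 itself and Apob are counted among these. The difference ran from 0.10 to 0.15 when any 1 array was left out.

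Apoa2 and Apom did not differ by more than their spread within a genotype. Apoa2, the second structural protein of HDL, stood at 14.53 and 14.57 on the wild-type arrays and 14.50 and 14.55 on the Cnot3+/- arrays (difference -0.02, SE 0.13, 95% confidence interval -0.35 to 0.31). Its sign turned without Cnot3+/- 1 (0.0055). Apom encodes the HDL carrier of sphingosine 1-phosphate. On probe set 1419095_a_at it stood at 11.59 and 11.44 on the wild-type arrays and 11.72 and 11.54 on the Cnot3+/- arrays (difference 0.11, SE 0.15). Its second probe set, 1419096_at, differed by 0.10. For both genes the groups overlapped, and without Cnot3+/- 1 Apom differed by 0.02.

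Apoa4 gave the largest difference, and it rested mainly on Cnot3+/- 2. Apoa4 encodes an apolipoprotein of intestine and liver that is secreted with triglyceride-rich particles and HDL. On probe set 1417761_at it read 10.47 and 10.08 on the wild-type arrays, 10.49 for Cnot3+/- 1 and 11.32 for Cnot3+/- 2. Cnot3+/- 2 was the high array, and Cnot3+/- 1 lay barely above wild-type 1. The ratio was 1.55 (95% confidence interval 0.891 to 2.69), with a log2 difference of 0.63 (SE 0.31, n = 2 per group, limma adjusted p = 0.999). The gap between the Cnot3+/- arrays, 0.84, exceeded it. The difference was 0.21 without Cnot3+/- 2 and 1.05 without Cnot3+/- 1, and 0.82 and 0.44 without wild-type 1 and 2.

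On the second Apoa4 probe set, 1436504_x_at, the wild-type arrays read 11.05 and 10.72, Cnot3+/- 1 read 11.05 and Cnot3+/- 2 read 11.81. Here the groups overlapped, since Cnot3+/- 1 lay just below wild-type 1 (difference 0.55, SE 0.28). Of all genes tested, 1.82%, Apoa4 included, had a positive difference at least as large as that of Apoa4. The macrophage markers were also highest on Cnot3+/- 2. So were 5 of 6 markers of T, NK and B cells and 5 of 8 of stellate cells and fibroblasts. For hepatocytes it was 3 of 8, for sinusoidal endothelium 1 of 8, for neutrophils 2 of 6 and for cholangiocytes 2 of 3. For small intestine it was 0 of 3, and for pancreas and erythroid cells 0 of 1 each. The share of all genes highest on Cnot3+/- 2 was not counted, and the part of these cells in the Apoa4 value was not tested. Of markers of small intestine, Fabp2 read 10.52 and 9.71 on the wild-type arrays and 9.45 and 9.22 on the Cnot3+/- arrays. Cdx2 and Alpi stood between 4.86 and 5.36, and Vil1 and Lct lay below the filter on dim probe sets. The part of intestinal RNA in the Apoa4 value was not tested.

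The genes with the 4-array pattern nearest to that of Apoa4 were Parp12, Trim30a and Gdpd1. After subtracting each gene's wild-type mean, their log2 values lay 0.04, 0.06 and 0.07 from those of Apoa4 (root mean square over the 4 arrays). In all, 11 genes lay within 0.1 and 85 within 0.2, so 4 arrays leave many patterns alike.

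Apoa5, Apoc3 and Apoc1, which bear on lipolysis and uptake, stood marginally lower on both Cnot3+/- arrays, by less than 0.1, and none passed the test. Apoa5, an activator of triglyceride clearance by lipoprotein lipase, stood at 13.42 and 13.51 on the wild-type arrays and 13.37 and 13.39 on the Cnot3+/- arrays (difference -0.09, SE 0.13, limma adjusted p = 0.999). Apoc3, which inhibits lipoprotein lipase and the uptake of remnants and is known as a gene that insulin represses through FOXO1, stood at 14.12 and 14.16 on the wild-type arrays and 14.10 and 14.10 on the Cnot3+/- arrays (difference -0.04, SE 0.13). Its 95% confidence interval ran from 0.778-fold to 1.22-fold. Apoc1, an inhibitor of lipoprotein uptake and of lipases, stood at 13.80 and 13.82 on the wild-type arrays and 13.75 and 13.78 on the Cnot3+/- arrays (difference -0.04, SE 0.13).

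For these 3 genes the groups did not overlap, but the differences of Apoa5 and Apoc3 were no larger than the larger gap within a genotype, 0.09 and 0.04. That of Apoc1 exceeded its larger gap of 0.03. Each was below the median size of the difference over all genes tested, 0.12. Their directions held when any 1 array was left out, which the lack of overlap fixes in advance. Apoa5 ran from -0.13 to -0.04, Apoc3 from -0.06 to -0.02 and Apoc1 from -0.06 to -0.03.

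For Apoe no difference was detected, and the interval leaves out a 2-fold change. Its protein is the ligand that carries remnants to hepatic receptors, and macrophages make it as well as hepatocytes. It read 14.48 and 14.51 on the wild-type arrays, 14.45 for Cnot3+/- 1 and 14.52 for Cnot3+/- 2, and the groups overlapped (difference -0.01, SE 0.13, 95% confidence interval 0.792-fold to 1.25-fold). Cnot3+/- 2, the array with the highest macrophage markers, was also its highest array, but only at 14.52 against 14.51 for wild-type 2. The part of macrophages in the Apoe value was not tested. The direction turned without wild-type 2 (0.0068), without Cnot3+/- 1 (0.024) and with arrays centred on their medians (0.0030).

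Apoe and Apoc1 are neighbours on chromosome 7, the chromosome of Cnot3, with 307 protein-coding genes between Cnot3 and Apoc1. Apoc4 and Apoc2, the cofactor of lipoprotein lipase, complete that cluster and are named for their position, after their values were seen. Apoc2 stood at 11.49 and 11.88 on the wild-type arrays and 11.81 and 12.01 on the Cnot3+/- arrays (difference 0.23, SE 0.18, and 0.035 without wild-type 1). Apoc4 stood at 13.19 and 12.92 on the wild-type arrays and 13.03 and 12.88 on the Cnot3+/- arrays (difference -0.11, SE 0.16, and 0.030 without wild-type 1). Both overlapped between genotypes.

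Among the other genes of lipoprotein metabolism, grouped in 6 lists, none passed in either direction. Of 17 other apolipoproteins and HDL-associated proteins tested, 11 stood higher and 6 lower (median 0.08). Saa2 and Saa1, acute phase proteins that bind HDL, differed by 3.98 (SE 0.60) and 3.02 (SE 0.55), both with a limma adjusted p of 0.999. Their transcripts are near-identical, which their probe sets may not tell apart. Saa1 stood at 9.23 and 10.91 on the wild-type arrays and 13.26 and 12.92 on the Cnot3+/- arrays. The Apoa1 transcript, whose protein SAA can displace from HDL, stood 0.12 higher on the same arrays.

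Of 25 genes of VLDL assembly and secretion, 11 stood higher and 14 lower (median -0.02). The largest differences were those of the carboxylesterase genes Ces1g, at 0.50 (SE 0.22), and Ces1d, at -0.47 (SE 0.13). Ces1g was 0.27 without wild-type 1. CES1D is a lipase that mobilises stored triglyceride for VLDL. Ces1d stood at 12.49 and 12.51 on the wild-type arrays and 12.03 and 12.03 on the Cnot3+/- arrays, and ran from -0.48 to -0.46 with any 1 array left out (unadjusted p = 0.0128, limma adjusted p = 0.999). Named after their values were seen, the genes that edit Apob mRNA to its short form are given too. A1cf, the cofactor, differed by -0.44 (SE 0.14). Apobec1, the deaminase, overlapped between genotypes and differed by 0.43 (SE 0.27), or by 0.11 without wild-type 1, 0.76 without wild-type 2 and 0.24 without Cnot3+/- 2. Editing itself is not read by these probe sets.

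Of 11 genes of triglyceride synthesis, 7 stood higher and 4 lower (median 0.11). Mogat1, a monoacylglycerol acyltransferase, differed by -0.81 (SE 0.28) and the phosphatidate phosphatase gene Lpin2 by 0.57 (SE 0.28). Mogat1 was -0.41 without wild-type 1, and Lpin2 was 0.18 without wild-type 1. Of 11 genes of lipoprotein receptors and uptake, 9 were higher and 2 lower, with a median of 0.16. In that list 8 of 11 genes were highest on Cnot3+/- 2. This was so for 3 of 17 other apolipoproteins, 11 of 25 genes of VLDL assembly and 3 of 11 of triglyceride synthesis. For lipolysis and HDL export it was 3 of 9, and for transcription factors 2 of 20. The share of all genes highest on that array was not counted. Lsr, the lipolysis-stimulated receptor, differed by 0.45 (SE 0.24) and Lrp1, a receptor for remnants, by 0.42 (SE 0.27). Lrp1 was 0.07 without wild-type 1, and Lsr was 0.20 without Cnot3+/- 2 and 0.05 on the mean of its probe sets.

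Of 9 genes of lipolysis and HDL export, 7 were higher and 2 lower, with a median of 0.04. Lpl, the lipoprotein lipase that clears VLDL triglyceride and is low in healthy adult liver, stood at 7.70 and 7.02 on the wild-type arrays and 8.53 and 9.15 on the Cnot3+/- arrays. The difference was 1.48 (SE 0.31, limma adjusted p = 0.999), and a second probe set differed by 1.49. Gpihbp1, its endothelial anchor, differed by -0.81 (SE 0.33), and by -0.32 without Cnot3+/- 1. Markers of sinusoidal endothelium were lower in 8 of 8 cases, from -0.99 for Clec4g to -0.05 for Lyve1 (median -0.49). For 5 of the 8 both Cnot3+/- arrays lay below both wild-type arrays, against 17.4% of all genes. The log2 summed level of the 8 was 11.34 and 11.40 on the wild-type arrays, 10.23 for Cnot3+/- 1 and 11.06 for Cnot3+/- 2. The part of endothelial cells in the Gpihbp1 value was not tested.

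Of 20 transcription factors and cofactors known to act on apolipoprotein genes, 9 were higher and 11 lower, with a median of -0.01. Srebf1, which drives lipogenic genes, differed by -1.15 (SE 0.23) and Ppargc1a, a fasting coactivator, by 1.13 (SE 0.29), or 0.73 without wild-type 1. Neither had a limma adjusted p below 0.999. Foxa2, a forkhead factor that acts on Mttp in fasting and is named after its values were seen, stood at 9.10 and 9.27 on the wild-type arrays and 8.59 and 8.59 on the Cnot3+/- arrays (difference -0.60, SE 0.14, unadjusted p = 0.0066).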

How the data were processed

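Liver RNA was measured on 4 one-colour Affymetrix arrays, 1 per animal, with biotin-labelled cRNA per the labels' protocols. The values deposited by the authors are on a log2 scale and come from RMA, as the submitters' processing notes name it. RMA corrects background, normalizes across arrays and shrinks differences of dim probe sets. For its version, the sources used here give none. All 4 columns were mapped to samples, with 0 left over. Genes came from the platform annotation. No array detection calls or scanner files were used here.

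No normalization was added. Probe sets with a mean below 4.06 (the lowest 40%) were left out. Each gene was represented by its brightest probe set, with _x_at and _s_at probe sets used only where there was no other, which gave 13379 genes. All members and 17 of 17 member probe sets passed the filter. The genotypes were compared in limma 3.58.1 (R 4.3.3; lmFit, eBayes, two-sided, no covariate), with Benjamini-Hochberg adjustment over all genes. There were 2 residual degrees of freedom, to which the prior (SD 0.162) brought 3.17. A second fit took all 45101 probe sets. SE is the moderated standard error. The fit was tested on simulated data. Precision is limited by 2 arrays per group.

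Named are the members, Cnot3, the 2 largest differences of each list, and the 3 genes nearest in pattern to the member of largest range. Exceptions are stated. The members and lists were chosen with earlier results of these data known. Alternatives were other filters, normalizations, probe set choices, variance models, the replicate number as a block, and leaving out each array. Lists of other cell types were read as follows: stellate cells 5 of 8 higher, cholangiocytes 3 of 3, neutrophils 3 of 6, lymphocytes 5 of 6, erythroid cells 1 of 1 (Alas2), pancreas 0 of 1 (Cela1), and 0 adipocyte markers tested.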

Additional observations from a re-analysis of the deposited data

How the results depend on the processing

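No member gene or member probe set was called in any alternative tried, and 0 genes of the lipoprotein lists were. Over all genes, 2 were called, 0 with the replicate block, and between 0 and 38 with 1 array left out. The number of members without overlap between genotypes was 3 after quantile normalization, against 32.1% of all genes. It was 5 with _s_at and _x_at probe sets allowed, against 31.4%. On the mean of a gene's probe sets it was 7, with Apob among them as higher, against 31.3%. With 1 array left out it ran from 6 to 10, against 61.2% to 69.4% of all genes. Replicate numbers are shared between the genotypes by label, but nothing says that they pair animals. Deviations from the group means correlated at 0.16 over genes between arrays of a same number, and with the replicate block the adjusted p of Apob was 0.830 and that of Apoa4 0.827.

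Leaving out 1 array turned the sign for Apob (-0.12 to 0.45 on 1455593_at and -0.32 to 0.78 on 1457554_at), Apoe (-0.043 to 0.024), Apoa2 (-0.049 to 0.0055), Apoc4 (-0.24 to 0.030) and Cnot3 (-0.36 to 0.30). Apoe also turned with arrays centred on their medians (0.0030), and Cnot3 on the mean of its probe sets (0.040). The direction of every other member held in all alternatives tried. For members without overlap, leaving out 1 array could not have turned it. The cause was not tested. Values near the top of the scale limit what Apoa1, Apoa2, Apoc3 and Apoe can show.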
